A study of Mus musculus with 8 samples.

Results

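Gpr-numbered G protein coupled receptors were examined in naive CD4 T cells and in effector Th1, Th2 and Th17 cells of the mouse. These are the genes whose symbol is Gpr followed by digits alone, a name given to receptor-like proteins when their ligands were unknown. Of the 23284 genes in the expression tables, 90 had such a symbol, and 30 of the 90 reached an FPKM of at least 1 in both libraries of a group. FPKM counts the sequenced fragments of a gene relative to the length of its exons and to the total of the library, so levels of different genes can be compared on this scale. These 30 are called listed receptors below, and the other 60 stayed under that level in at least 1 library of each group.

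All cells were from mice of the strain DO11.10 Tg, which bear a transgenic T cell receptor (TCR) for a peptide of ovalbumin (OVA). Naive cells were splenic CD4+ cells sorted as CD44low and CD62Lhi and were not cultured. Effector cells were grown from such cells for 6 days with OVA peptide and irradiated splenocytes that had been depleted of T cells. In Th1 cultures these were kept with IL-2 (30 U/ml), with IL-12 (100 U/ml) and with an antibody to IL-4 at 1 µg/ml. In Th2 cultures they were kept with IL-2 (30 U/ml), with IL-4 (100 U/ml) and with an antibody to IFNγ at 10 µg/ml. In Th17 cultures, IL-6, IL-1β and IL-23 were present at 10 ng/ml each, together with antibodies to IL-4 and IFNγ at 10 µg/ml each. Each of the 4 groups had 2 libraries, numbered 1 and 2. The labels do not say that the libraries of a group came from separate animals or cultures, so the p-values measure only the spread between these libraries. A difference between effector and naive cells holds activation, growth in culture and the presence of other splenocytes together, which cannot be told apart here.

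G protein coupled receptors span the membrane with a bundle of helices and pass the binding of a ligand outside the cell to a G protein inside it. The alpha subunit of the G protein sets the route, since Gs raises cyclic AMP (cAMP), Gi lowers it, Gq acts through phospholipase C and the G12/13 family acts on the cytoskeleton. In T cells, receptors of this kind sense lipids, acid and nucleotides of the surroundings and guide migration within lymphoid organs and into tissues.

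The number of fragments implied by the confidence intervals of the tables was 14463466 to 21058286 per library and was lowest in the naive libraries. The sums of the lineage genes fitted the labels: the summed FPKM of 4 Th1 markers was 907.2 to 1048 in Th1 libraries and 2.54 to 143.9 in the others, that of 4 Th2 markers 384.2 to 416.8 against 6.75 to 26.4, and that of 4 Th17 markers 1395 to 1425 against 0.841 to 3.31. Ifng, at 801.9 and 614.4, made up most of the Th1 sum, and the Th1 marker Cxcr3 was higher in Th17 (11.3 and 11.5) than in Th1 libraries (8.01 and 9.35). The 6 naive markers summed to 1873 and 1874 in naive and 190.6 to 503.0 in effector libraries. Among them Il7r was higher in Th1 (187.0 and 165.0) than in naive libraries (90.6 and 76.5). Markers of other cells were present at low levels. The 5 B cell markers summed to 2.32 to 12.1, the 5 myeloid markers to 7.94 to 27.8 and the 5 dendritic markers to 0.126 to 2.34. The naive libraries held Cd8b1 at 90.5 and 52.8 against 8.77 to 12.9 in effector cells, while Cd8a was 2.94 and 1.77 there. Mpo and Elane, genes of immature neutrophils, reached 4.89 in libraries numbered 1 and at most 0.106 in those numbered 2. The part of such cells in the levels of the receptors was not tested. The median difference of all 11198 genes tested was -0.11 between Th2 and naive cells and 0.18 between Th17 and Th2 cells on the log2 scale, and median scaling brought these to 0.002 and 0.025. The genes higher and lower in Th17 than in Th2 numbered 3546 and 1339, against 2303 and 2018 once scaled to the median and 2256 and 2191 once quantile normalized. Quantile normalization also gave 2421 and 2335 in place of 3065 and 1896 between Th1 and Th2, and 3408 and 4305 in place of 4197 and 3337 between Th17 and naive cells.

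Promoter sequence is shown for the pair of receptors that were higher in Th1 cells than in every other group, Gpr55 and Gpr141, and for Gpr174, which was lower in all 3 effector subsets. Each line holds the 250 bases before the transcription start of the RefSeq table for GRCm38.p6, the mm10 genome, written 5′ to 3′ on the strand of the gene. Capitals mark a match to one of the motifs searched, and a line without capitals holds none. They lie at chr1:85961056-85961305 (minus strand) for Gpr55, chr13:19824258-19824507 (minus strand) for Gpr141 and chrX:107284096-107284345 (plus strand) for Gpr174. The Gpr174 line lies inside the gene as annotated for its FPKM, chrX:107255878-107296769, so it precedes an internal start and not the first base of that gene.
Gpr55: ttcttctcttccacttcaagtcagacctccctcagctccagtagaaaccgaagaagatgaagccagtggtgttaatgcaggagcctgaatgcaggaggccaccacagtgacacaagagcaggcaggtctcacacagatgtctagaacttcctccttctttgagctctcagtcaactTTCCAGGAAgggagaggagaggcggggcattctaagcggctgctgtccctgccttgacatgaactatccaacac
Gpr141: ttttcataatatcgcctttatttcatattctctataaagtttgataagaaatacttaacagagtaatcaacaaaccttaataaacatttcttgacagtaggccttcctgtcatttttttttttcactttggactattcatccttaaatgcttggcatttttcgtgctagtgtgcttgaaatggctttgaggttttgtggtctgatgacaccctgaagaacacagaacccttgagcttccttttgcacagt
Gpr174: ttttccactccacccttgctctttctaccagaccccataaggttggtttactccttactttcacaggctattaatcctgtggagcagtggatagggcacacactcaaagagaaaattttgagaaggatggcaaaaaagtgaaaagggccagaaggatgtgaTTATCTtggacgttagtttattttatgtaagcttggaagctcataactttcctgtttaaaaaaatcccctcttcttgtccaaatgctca

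The motifs were searched on both strands and were chosen for factors of these cells. They were the AP-1 element TGANTCA, the T-box element AGGTGTGA, the GAS element TTCNNNGAA of STAT proteins, and the GATA element AGATAA. A promoter was given for 25 of the 30 listed receptors, 33 promoters in all. The capitals in the Gpr55 line are a GAS element that begins 74 bases before the start. Those in the Gpr174 line are a GATA element, read on the other strand, 89 bases before the internal start. A GAS element was in 3 of the 33 promoters, those of Gpr55, Gpr62 and 1 start of Gpr146, against 7.02% of the 32851 mouse promoters in the table. AP-1 and GATA elements were each in 1 of the 33, those of Gpr15 and Gpr174, against 6.75% and 9.99%, and the T-box element in 0, against 1.12%. These matches describe the letters of the window and were not tested as binding sites.

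The listed receptors made up 33.3% of the 90, whereas 50.2% of all genes in the tables reached the same level in a group. Of the 30, 19 reached it in naive, 20 for Th1, 18 for Th2 and 24 for Th17 cells. A set of 13 was at this level in all 4 groups, 4 in naive cells alone, and 11 in effector cells alone, of which 3 were in all 3 subsets and 5 in a single subset. The shares of all genes at this level in each group or in these patterns were not computed. These counts therefore do not show a property particular to the receptors. Among the 60 unlisted genes, 17 were listed at 0 in every library and 40 stayed under 0.1 throughout. Just inside the limit were Gpr119, at 1.11 in the lower Th17 library, and Gpr182 and Gpr3, both at 1.15 in the lower library of naive and Th17 cells respectively. Just outside it were Gpr81, at 0.935 and 1.19 in Th2 cells, and Gpr157, at 0.725 and 0.694 in the same libraries. Gpr81, the lactate receptor now named Hcar1, was listed at 0 in both naive libraries and reached at most 0.121 in Th1 and Th17 cells.

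**Figure D1:**
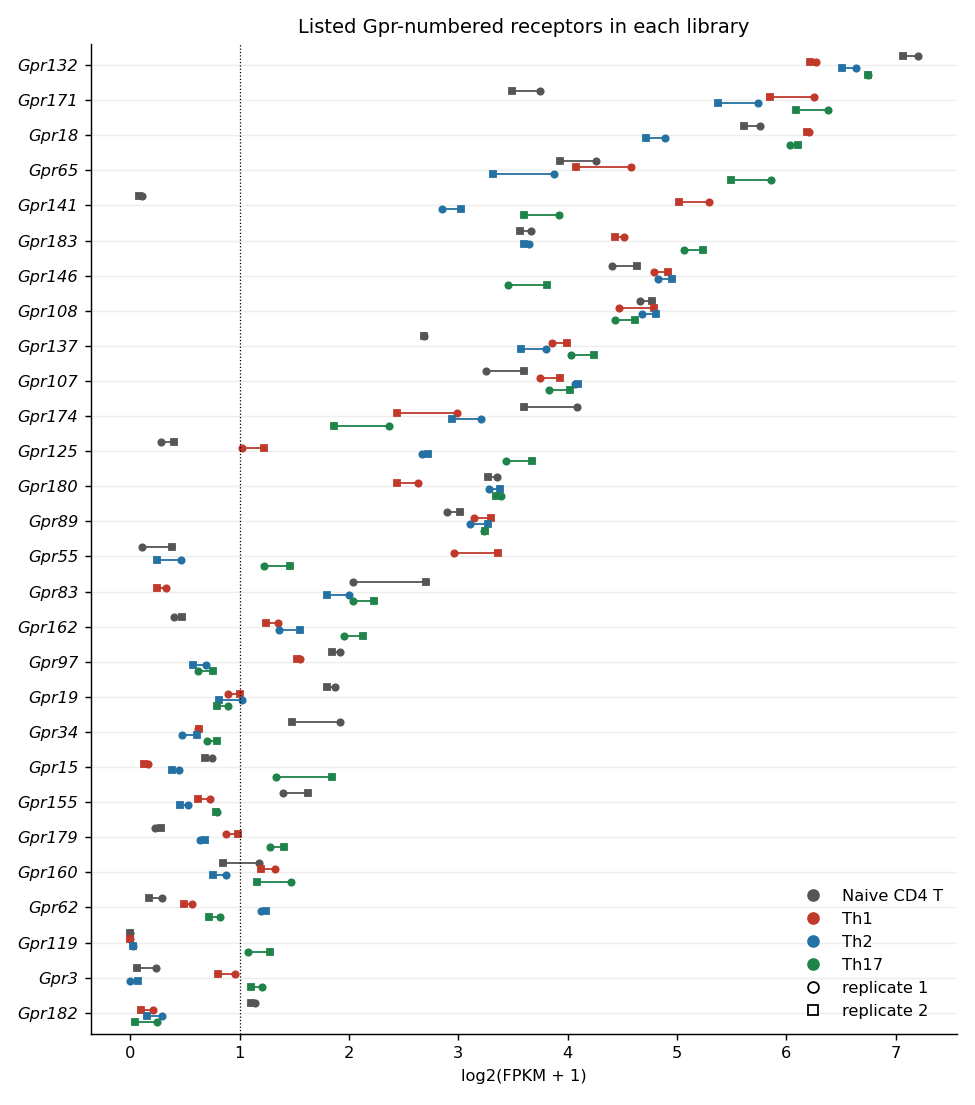
Level of 28 of the 30 listed receptors as log2(FPKM + 1) in each of the 8 libraries, ordered by their highest group mean. Circles are libraries numbered 1, squares are libraries numbered 2, a line joins the pair of a group, and the dotted line is an FPKM of 1. Gpr132 lies highest in every group, and Gpr141 lies near 0 in naive cells and above 2.8 in all effector libraries.

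Gpr132, of the family of acid-sensing receptors, had the highest level of all 90 genes in every group. It alone held 40.6% of the summed FPKM of the 90 genes in naive cells, 17.5% in Th1 cells, 28.3% in Th2 cells and 22.0% in Th17 cells. In naive cells it was followed by Gpr18 at 50.6 ± 3.78 (SD, n = 2), Gpr108 at 25.3 ± 1.39 and Gpr146 at 22.0 ± 2.53. Gpr108 and Gpr146 lay so close that their neighbouring libraries, 24.3 and 23.8, differed by less than the spread within either gene. In Th1 cells Gpr132, Gpr18 and Gpr171 had means of 74.8, 72.4 and 65.9, and the libraries of Gpr171, 75.1 and 56.7, spanned the values of Gpr18. In Th2 cells the order was Gpr132, Gpr171, Gpr146, Gpr18 and Gpr108, with overlap between neighbours among the last 3. In Th17 cells it was Gpr132, Gpr171, Gpr18 and Gpr65, with overlap only between Gpr171 at 67.1 and 82.3 and Gpr18 at 64.3 and 68.0. The sum over the 90 genes was 484.2 in Th17, 427.3 in Th1, 343.5 in naive and 333.5 in Th2 cells.

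Of the 30 listed receptors, 22 had an FPKM that averaged at least 1 across the 8 libraries and entered the comparison of groups. The test was limma on log2(FPKM + 1) with all 8 libraries in 1 fit, Benjamini-Hochberg adjustment over the 11198 genes tested and a threshold of 0.05, and each difference below is on that scale, which understates the change of genes at low levels. All 3 comparisons with naive cells use the same 2 naive libraries. In Th1 cells 11 of the 22 rose against naive cells and 6 fell, beside 33.8% and 33.5% of all genes tested. In Th2 cells 7 rose and 5 fell, beside 31.8% and 38.7% of all genes. In Th17 cells 13 rose and 5 fell, beside 37.5% and 29.8% of all genes. The median difference of the 22 was 0.37, 0.07 and 0.44 in Th1, Th2 and Th17 cells, where that of all genes tested was -0.01, -0.11 and 0.08. Since RNA was measured in bulk, fewer cells with a transcript and less of it per cell cannot be told apart in any of these values.

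Between effector subsets, 6 receptors were higher and 5 lower in Th1 than in Th2 cells, beside 27.4% and 16.9% of all genes. In Th17 cells 11 were higher and 2 lower than in Th2 cells, beside 31.7% and 12.0% of all genes. In Th1 cells 4 were higher and 8 lower than in Th17 cells, beside 9.17% and 16.0%. The 2 receptors lower in Th17 than in Th2 cells were Gpr146 and Gpr174, and only Gpr146 passed without Th2 replicate 1, without Th2 replicate 2 and without Th17 replicate 2, leaving 1. With median scaling the Th17 and Th2 counts were 8 higher and 3 lower, and with quantile normalization 7 and 3. The 5 receptors lower in Th1 than in Th2 cells were 3 when any single Th1, Th2 or Th17 library was left out, without Gpr132 among others, and the 8 lower in Th1 than in Th17 cells were 5 without Th1 replicate 2, then without Gpr132 and Gpr65 among others.

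Receptors were then sorted into classes, each by the same threshold. A naive receptor was lower in all 3 subsets than in naive cells, a shared effector receptor was higher in all 3, and a subset-specific receptor was higher in 1 subset than in naive cells and in both other subsets. The naive class held 4 of the 22, Gpr132, Gpr174, Gpr19 and Gpr97, beside 23.8% of all genes tested. The shared effector class held 7, among them Gpr107, Gpr125, Gpr137, Gpr141, Gpr162 and Gpr171, beside 24.8% of all genes. Specific to Th1 cells were 2, Gpr141 and Gpr55, beside 4.18%, and specific to Th17 cells were 4, Gpr125, Gpr162, Gpr183 and Gpr65, beside 5.55%. Specific to Th2 cells were 0, beside 6.6% of all genes. A receptor can be both shared and subset-specific, as Gpr141, Gpr125 and Gpr162 were, and 8 of the 22 were in no class. Of the 22, 18 differed between at least 1 pair of subsets and 1, Gpr108, passed in none of the 6 comparisons. Of all genes tested, 44.3% differed between Th1 and Th2 cells, 43.6% between Th17 and Th2 cells and 25.1% between Th1 and Th17 cells. The shares of all genes in at least 1 such pair, in no comparison or in no class were not computed. When a difference of at least 1 on the log2 scale was also required, the naive class held 0, the shared class 3, among them Gpr141 and Gpr171, the Th1 class Gpr141 and Gpr55, and the Th17 class Gpr65. The shares of all genes at this stricter limit were not computed. Without Naive replicate 1 the naive class held 2, Gpr19 and Gpr83.

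**Figure D2:**
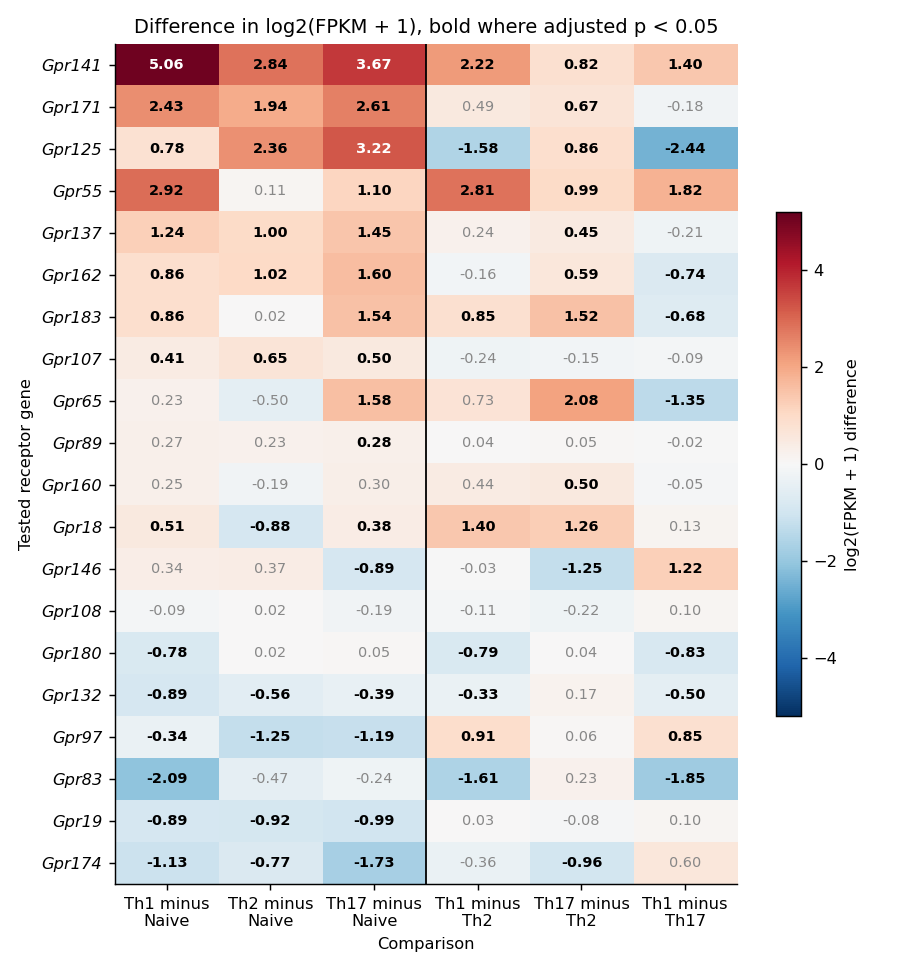
Difference in log2(FPKM + 1) for 20 of the 22 tested receptors in the 6 comparisons, red where the first named group was higher and blue where it was lower. Bold numbers passed an adjusted p of 0.05 in limma, and grey ones did not. Gpr141 shows the largest rise, 5.06 in Th1 cells, and Gpr83 the largest fall against naive cells, -2.09 in Th1 cells.

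Gpr132, Gpr65 and Gpr4 belong to a family of acid-sensing receptors, of which Gpr4 stayed at or under 0.335 in all 8 libraries. Protonation of histidines outside the cell activates members of this family such as Gpr65 (also called TDAG8), which raises cAMP through Gs. Whether Gpr132 sensed acid in these cells was not tested. Gpr132 and Gpr65 went different ways in effector cells: Gpr132 was lower in all 3 subsets, and Gpr65 was higher in Th17 cells alone.

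Gpr65 (chr12:98268657-98276632) had an FPKM of 18.1 and 14.3 in naive libraries, 22.9 and 15.9 in Th1 libraries, 13.7 and 8.97 in Th2 libraries and 56.9 and 44.1 in Th17 libraries. The Th17 libraries lay above all 6 others, the Th2 libraries lay below all others, and those of naive and Th1 cells overlapped. The difference was 1.58 ± 0.25 (SE) between Th17 and naive cells (limma adjusted p = 0.00124), 2.08 ± 0.25 between Th17 and Th2 cells (0.00107) and -1.35 ± 0.25 between Th1 and Th17 cells (0.00923). The last of these did not pass without Th1 replicate 2 (adjusted p = 0.0576) or without Th17 replicate 1 (0.0612). In every group the library numbered 1 was higher. With the replicate number as a block in the fit, 3 more differences of Gpr65 passed, 0.23 between Th1 and naive cells (adjusted p = 0.0459), -0.50 between Th2 and naive cells (0.00219) and 0.73 between Th1 and Th2 cells (0.001). The transcript shares 511 exon bases, 24.7% of its own, with the antisense gene Gm47566.

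Gpr132 (chr12:112850876-112860916) fell from 139.5 ± 9.75 in naive cells to 74.8 ± 1.93 for Th1, 94.2 ± 5.59 for Th2 and 106.3 ± 0.175 for Th17 cells (SD, n = 2). No effector library reached the lower naive one, which was at 132.6. The differences were -0.89 ± 0.10 (SE, limma adjusted p = 0.000196), -0.56 ± 0.10 (0.00174) and -0.39 ± 0.10 (0.0104), and the Th17 one did not pass without Naive replicate 1 (0.0512). Between Th1 and Th17 cells the difference was -0.50 ± 0.10 (adjusted p = 0.0106), with 0.0509 to 0.0727 when a Th1 or a Th17 library was left out.

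**Figure D3:**
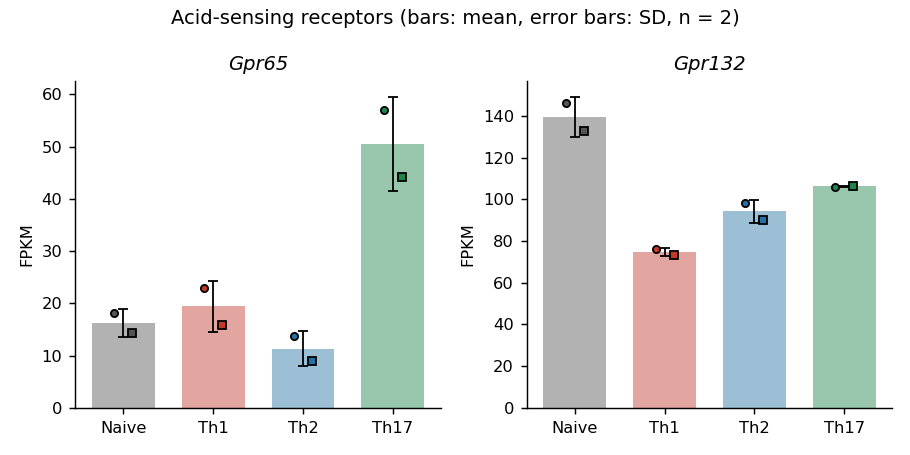
FPKM of Gpr65 and Gpr132, of the family of acid-sensing receptors, in the 4 groups. Bars are means of 2 libraries, error bars are SD, and circles and squares are libraries 1 and 2. Gpr65 stands out in Th17 cells at 50.5, and Gpr132 is highest in naive cells at 139.5.

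Gpr171, which is related in sequence to receptors for purine nucleotides, and the orphan receptor Gpr141 were both shared effector receptors. Gpr141 showed the largest change of the 22. Gpr141 (chr13:19749682-19824257) had an FPKM of 0.0811 and 0.0544 in naive libraries, 38.2 and 31.5 in Th1 libraries, 6.20 and 7.13 in Th2 libraries and 14.1 and 11.1 in Th17 libraries. The 4 groups did not overlap, with Th1 highest, then Th17, then Th2, and the naive values rest on 6 and 4 implied fragments. It rose by 5.06 ± 0.14 in Th1 (limma adjusted p = 4.17e-07), 2.84 ± 0.14 in Th2 (3.80e-06) and 3.67 ± 0.14 in Th17 cells (1.31e-06). Th1 cells exceeded Th2 cells by 2.22 ± 0.14 (adjusted p = 5.12e-05) and Th17 cells by 1.40 ± 0.14 (0.000665).

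Gpr171 (chr3:59096448-59101821) had an FPKM of 12.5 and 10.2 in naive libraries, 75.1 and 56.7 in Th1 libraries, 52.6 and 40.6 in Th2 libraries and 82.3 and 67.1 in Th17 libraries. Every effector library lay well above both naive ones, while the Th1 libraries overlapped those of Th17 cells. It rose by 2.43 ± 0.20 in Th1 (limma adjusted p = 4.37e-05), 1.94 ± 0.20 in Th2 (0.000112) and 2.61 ± 0.20 in Th17 cells (2.68e-05). The library numbered 1 was the higher in all 4 groups. Th17 exceeded Th2 cells by 0.67 ± 0.20 (adjusted p = 0.0307), which did not pass without Th2 replicate 2, Th17 replicate 1 or Th17 replicate 2, nor with median scaling (0.105) or quantile normalization (0.0837), and the difference of 0.49 between Th1 and Th2 cells passed only with the replicate block (0.00245). The gene lies within Med12l on the opposite strand and shares 0 exon bases with it.

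Lipid receptors among the listed genes were Gpr183, Gpr18, Gpr55, Gpr174, Gpr34 and Gpr119. Gpr55, which binds lysophosphatidylinositol, was a Th1 receptor. Gpr55 (chr1:85939537-85961055) had an FPKM of 0.0744 and 0.299 in naive libraries, 6.78 and 9.32 in Th1 libraries, 0.377 and 0.184 in Th2 libraries and 1.33 and 1.75 in Th17 libraries. The Th1 libraries lay above all others, the Th17 libraries came next, and the naive and Th2 libraries overlapped. Against Th2 cells the Th1 level was higher by 2.81 ± 0.18 (limma adjusted p = 5.27e-05), against Th17 cells by 1.82 ± 0.18 (0.000601) and against naive cells by 2.92 ± 0.18 (1.30e-05). It also rose in Th17 cells, by 1.10 ± 0.18 (adjusted p = 0.00156), although not under quantile normalization (0.712).

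Gpr183, also called EBI2, guides lymphocytes along gradients of oxysterols. At chr14:121952331-121965193, its level was 11.2 ± 0.599 in naive, 21.2 ± 0.958 for Th1, 11.4 ± 0.267 for Th2 and 34.6 ± 2.90 for Th17 cells (SD, n = 2), so that naive and Th2 libraries overlapped and the other groups lay apart. It rose by 0.86 ± 0.10 in Th1 (SE, limma adjusted p = 0.000204) and by 1.54 ± 0.10 in Th17 cells (1.04e-05). Against naive cells the Th2 difference was 0.02 ± 0.10 (adjusted p = 0.895). Th17 exceeded Th1 cells, with -0.68 ± 0.10 for Th1 minus Th17 (adjusted p = 0.00265).

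Gpr18, for which N-arachidonylglycine and resolvin D2 have been proposed as ligands, lies 36556 bases from Gpr183 on chromosome 14, at chr14:121911434-121915774. It had an FPKM of 53.2 and 47.9 in naive libraries, 72.9 and 71.9 in Th1 libraries, 28.6 and 25.3 in Th2 libraries and 64.3 and 68.0 in Th17 libraries. The Th1 and Th17 libraries lay above the naive ones and the Th2 libraries below them. Of the 22 receptors it was the only one that rose in a subset and fell in another, by 0.51 ± 0.10 in Th1 (limma adjusted p = 0.00364), 0.38 ± 0.10 in Th17 (0.0133) and -0.88 ± 0.10 in Th2 cells (0.000223). The Th17 rise did not pass without Naive replicate 2 (adjusted p = 0.0722) or without Th17 replicate 2 (0.0696), or under quantile normalization (0.0677). With the replicate block Gpr65 also met this description. Th1 exceeded Th2 cells by 1.40 ± 0.10 (adjusted p = 8.28e-05) and Th17 exceeded Th2 cells by 1.26 ± 0.10 (0.000207). Gpr18 and Gpr183 both lie within Ubac2 on the opposite strand and share 0 exon bases with it, and Ubac2 was at 69.6 to 72.8 in naive and Th1 libraries and 27.5 to 30.7 in Th2 and Th17 libraries. The part of Ubac2 reads in the levels of both receptors was not tested.

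Gpr174 and Gpr34 are receptors for lysophosphatidylserine, Gpr174 acting through Gs and Gpr34 through Gi, and both were highest in naive cells. Gpr174 was 13.6 ± 3.43 in naive, 5.68 ± 1.80 for Th1, 7.46 ± 1.10 for Th2 and 3.41 ± 1.08 for Th17 cells (SD, n = 2), and no effector library reached the lower naive one. It fell by 1.13 in Th1 (limma adjusted p = 0.00759), 0.77 in Th2 (0.0347) and 1.73 in Th17 cells (0.000987), each ± 0.26 (SE). The Th2 fall did not pass without Naive replicate 1 or either Th2 library (0.0657 to 0.178), nor with median scaling (0.0755). With the replicate block its differences between Th1 and the other two subsets passed too, -0.36 against Th2 (adjusted p = 0.0203) and 0.60 against Th17 (0.00530). Gpr34, which had too low a mean to be tested, had an FPKM of 2.78 and 1.79 in naive libraries and 0.386 to 0.734 in effector libraries. Csf1r, a macrophage gene, was likewise highest in naive libraries, at 3.84 and 3.20 against 0.159 to 0.989, whereas the 5 myeloid markers together summed to 12.2 and 12.8 in naive and 7.94 to 27.8 in effector libraries. The part of myeloid cells in the level of Gpr34 was not tested.

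**Figure D4:**
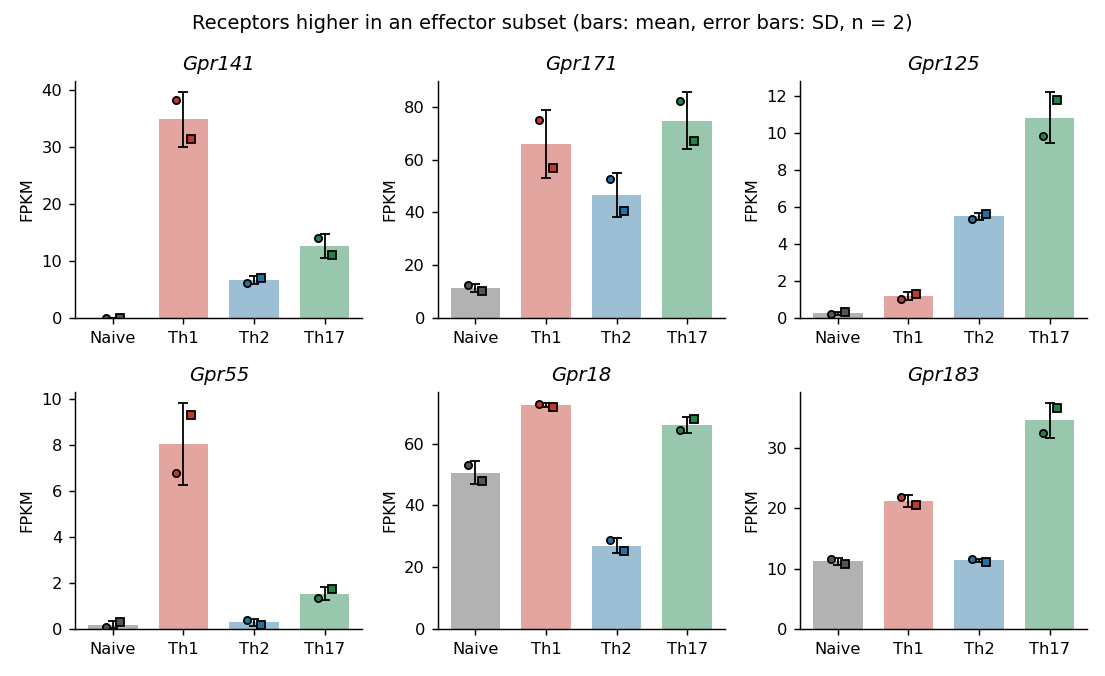
FPKM of receptors that were higher in at least 1 effector subset, Gpr141, Gpr171, Gpr125, Gpr55, Gpr18 and Gpr183, in the 4 groups. Bars are means of 2 libraries, error bars are SD, and circles and squares are libraries 1 and 2. Gpr141 and Gpr55 are highest in Th1 cells at 34.8 and 8.05, Gpr125 and Gpr183 in Th17 cells at 10.8 and 34.6, and Gpr18 is lowest in Th2 cells.

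Gpr125, now named Adgra3, belongs to the adhesion receptors, a class with long extracellular domains, and was both a shared effector and a Th17 receptor, at 0.267 ± 0.0736 in naive, 1.18 ± 0.214 for Th1, 5.49 ± 0.171 for Th2 and 10.8 ± 1.37 for Th17 cells (SD, n = 2). The 4 groups did not overlap. It rose by 3.22 ± 0.12 in Th17 (SE, limma adjusted p = 1.20e-06), 2.36 ± 0.12 in Th2 (4.55e-06) and 0.78 ± 0.12 in Th1 cells (0.00126), the last of which was -0.03 under quantile normalization (0.823). Th1 cells held less than Th17 cells by a difference of -2.44 ± 0.12 (adjusted p = 3.52e-05) and less than Th2 cells by -1.58 ± 0.12 (0.000116).

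Gpr97, now named Adgrg3, is an adhesion receptor of the naive class. Gpr97 was 2.68 ± 0.128 in naive, 1.91 ± 0.0370 in Th1, 0.614 ± 0.102 in Th17 and 0.553 ± 0.0883 in Th2 cells (SD, n = 2). It fell by 1.25 ± 0.11 in Th2 (SE, limma adjusted p = 5.17e-05), 1.19 ± 0.11 in Th17 (7.05e-05) and 0.34 ± 0.11 in Th1 cells (0.0272), and the Th1 fall did not pass without either naive or either Th1 library (0.0566 to 0.0910). Gpr97 is known from granulocytes, and the 4 neutrophil markers summed to 1.21 and 0.173 in naive libraries and 0.043 to 7.65 in effector libraries. The part of such cells in the level of Gpr97 was not tested.

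Gpr83, a receptor known from regulatory T cells, had 3.11 and 5.51 in naive libraries, 0.254 and 0.184 in Th1 libraries, 3.004 and 2.48 in Th2 libraries and 3.10 and 3.70 in Th17 libraries. The Th1 libraries lay below all others, and the Th17 libraries overlapped the naive ones. In Th1 cells it fell by 2.09 ± 0.22 against naive cells (limma adjusted p = 0.000144), and the Th1 level was also lower than in Th2 (-1.61 ± 0.22, adjusted p = 0.00124) and Th17 cells (-1.85 ± 0.22, 0.00113). Without Naive replicate 1, its differences from naive cells also passed in Th2 (0.00488) and Th17 cells (0.0194). Foxp3, the defining factor of regulatory T cells, was 6.68 and 12.8 in naive libraries, 0.874 and 1.13 in Th1 libraries, 0.423 and 0.541 in Th2 libraries and 3.03 and 5.76 in Th17 libraries, and Ikzf2 was 1.53 and 2.55, 1.82 and 1.80, 0.149 and 0.346, and 1.28 and 1.57 in the same order. Both Gpr83 and Foxp3 were higher in replicate 2 of naive and Th17 cells, while in Th2 cells Gpr83 was present with little Foxp3; the part of regulatory T cells in its level was not tested.

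Gpr146, which has been linked to cholesterol metabolism, was at a lower level in Th17 cells only. It was 22.0 ± 2.53 in naive, 28.0 ± 1.79 for Th1, 28.6 ± 1.87 for Th2 and 11.5 ± 2.13 for Th17 cells (SD, n = 2). In Th17 cells it fell by 0.89 ± 0.14 against naive cells (SE, limma adjusted p = 0.00134) and lay below Th2 (-1.25 ± 0.14, 0.000863) and Th1 cells (1.22 ± 0.14 for Th1 minus Th17, 0.00121). Its differences of 0.34 in Th1 and 0.37 in Th2 against naive cells passed only in some fits, among them that with the replicate block (adjusted p = 0.0108 and 0.00716). Gpr19, an orphan receptor, was 2.57 ± 0.143 in naive cells and 0.797 to 0.928 on average in effector cells, where it fell by 0.89, 0.92 and 0.99 (± 0.12 each, adjusted p = 0.000567, 0.000436 and 0.000315 in Th1, Th2 and Th17). Gpr162, another orphan, was 0.354 ± 0.0515 in naive, 1.46 ± 0.129 for Th1, 1.75 ± 0.263 for Th2 and 3.12 ± 0.351 for Th17 cells, and rose by 1.60 ± 0.12 in Th17 cells (adjusted p = 2.92e-05). Under quantile normalization its rises in Th1 and Th2 cells did not pass (0.761 and 0.0947). Gpr160 passed only between Th17 and Th2 cells, by 0.50 ± 0.17 (adjusted p = 0.0477), and in 5 of the 8 fits without a single library it did not, nor with median scaling (0.104) or quantile normalization (0.303). Its difference of 0.44 between Th1 and Th2 cells passed with the replicate block (adjusted p = 0.0194), in the fit of these groups alone (0.0203) and with the filter on both libraries of a group (0.0441).

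Several Gpr-numbered genes code for membrane proteins of the Golgi or lysosome that are known mainly from inside the cell. Gpr107, Gpr108 and Gpr180 belong to 1 such family, Gpr89 is a Golgi pH regulator, and Gpr137 acts at the lysosome. Gpr137 rose by 1.24 ± 0.12, 1.00 ± 0.12 and 1.45 ± 0.12 in Th1, Th2 and Th17 cells (SE, limma adjusted p = 9.88e-05, 0.000252 and 4.00e-05), from 5.45 in both naive libraries to 10.9 to 17.9 in effector libraries. Th17 exceeded Th2 cells by 0.45, which passed neither with median scaling (adjusted p = 0.0744) nor with quantile normalization (0.0641). It shares 524 exon bases, 15.4% of its own, with Bad on the opposite strand, which was 6.19 and 6.44 in naive and 6.50 to 15.6 in effector libraries. Gpr107 rose by 0.41, 0.65 and 0.50 (± 0.14 each), and its rise in Th1 cells (adjusted p = 0.0353) did not pass when a naive, Th1 or Th2 library other than Naive replicate 2 was left out. Its rise in Th17 cells did not pass without Naive replicate 1 (adjusted p = 0.0824) or without Th17 replicate 2 (0.0983), with no filter on low values (0.0518) or in the fit of these groups alone (0.0550). Gpr180 was lower in Th1 cells alone, by -0.78 ± 0.10 against naive cells (adjusted p = 0.000413), at 4.82 ± 0.541 against means of 8.95 to 9.34 in the other groups. Gpr89 rose by 0.28 ± 0.10 in Th17 cells (adjusted p = 0.0459), a call lost without most single libraries, and with the replicate block it also rose in Th1 (0.0195) and Th2 cells (0.0328) and joined the shared effector class, making 8. It shares 1333 exon bases, 24.8% of its own, with Pdzk1 on the opposite strand, which was 0.551 to 1.82 over the libraries. Gpr108 stayed at 20.6 to 26.9 in all 8 libraries, although with median scaling it was lower in Th17 than in Th2 cells, by a difference of -0.39 (adjusted p = 0.0405).

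The other 8 listed receptors had a mean FPKM under 1 over the 8 libraries and were not tested. Their values are described, and each was listed because of the group in which it was high. Gpr119, the receptor for oleoylethanolamide known from pancreatic beta cells and gut endocrine cells, had an FPKM of 1.11 and 1.42 in Th17 libraries, was listed at 0 in naive and Th1 libraries, and was 0.0158 and 0.0161 in Th2 libraries. The Th17 values rest on 74 and 71 implied fragments, against at most 1 in any other library. Gpr15, a receptor that directs T cells to the large intestine, had 1.51 and 2.59 in Th17, 0.684 and 0.606 in naive, 0.362 and 0.306 in Th2 and 0.1198 and 0.0944 in Th1 libraries. It was thus highest in Th17 cells, with 53 and 68 implied fragments, and its promoter is the 1 that held an AP-1 element. Gpr15 shares 204 exon bases, 12.5% of its own, with Cpox on the opposite strand, which was 3.56 to 5.18 over the libraries. The part of Cpox reads in the level of Gpr15 was not tested.

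Gpr3, a receptor that raises cAMP without a ligand, was 1.31 and 1.15 in Th17, 0.939 and 0.741 in Th1, and at most 0.180 in naive and Th2 libraries. It shares 204 exon bases, 7.5% of its own, with Cd164l2 on the opposite strand. Cd164l2 was listed at 0 in naive and Th2 libraries and was 0.375 and 0.393 in Th1 and 0.476 and 1.27 in Th17 libraries. The part of Cd164l2 reads in the level of Gpr3 was not tested. Gpr179, known from retinal bipolar cells, was 1.43 and 1.66 in Th17 libraries, between 0.552 and 0.977 in Th1 and Th2, and at most 0.218 in naive libraries. Gpr62, an orphan receptor, was highest in Th2 cells, at 1.29 and 1.36 against 0.404 to 0.768 in Th1 and Th17 and at most 0.221 in naive libraries. Gpr155, a lysosomal protein, was 1.63 and 2.08 in naive and 0.370 to 0.733 in effector libraries. Gpr182, an atypical chemokine receptor, was 1.20 and 1.15 in naive and 0.0278 to 0.220 in effector libraries, the latter on at most 10 implied fragments.

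**Figure D5:**
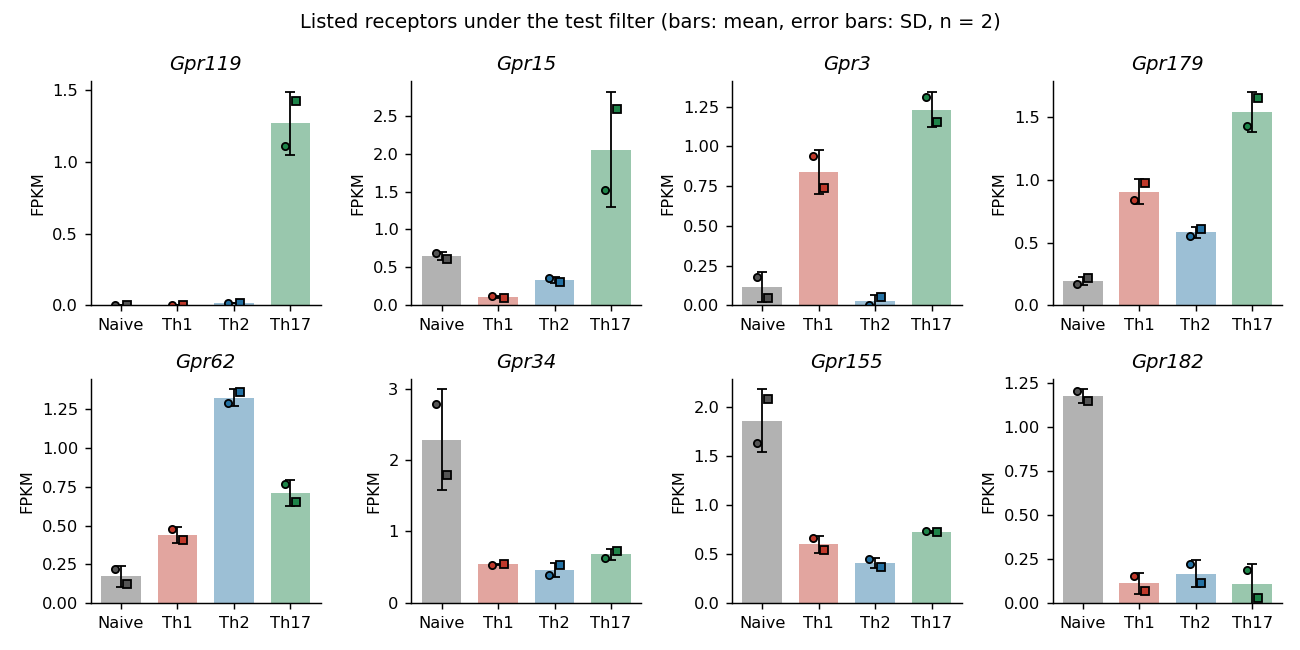
FPKM of the 8 listed receptors with a mean under 1 over the 8 libraries, in the 4 groups. Bars are means of 2 libraries, error bars are SD, and circles and squares are libraries 1 and 2. Gpr119, Gpr15, Gpr3 and Gpr179 are highest in Th17 cells, Gpr62 in Th2 cells, and Gpr34, Gpr155 and Gpr182 in naive cells.

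The G proteins and enzymes that act downstream of these receptors were described from lists by function, whose counts stand beside the 33.8%, 31.8% and 37.5% of all genes that rose in Th1, Th2 and Th17 cells and the 33.5%, 38.7% and 29.8% that fell. Of 13 genes for G alpha subunits, 10 were tested, and against naive cells 6 rose and 1 fell for Th1, 6 rose and 2 fell for Th2, and 7 rose and 1 fell for Th17. The medians of the 10 were 0.50, 1.01 and 0.55, where those of all genes tested were -0.01, -0.11 and 0.08. Gnaq, which activates phospholipase C, rose most, by 3.12 in Th1 cells, from 0.836 and 0.986 to 14.8 and 16.3 (limma adjusted p under the threshold in all 3 subsets). Gna15, of the same class, rose by 2.55 in Th2 cells, and Gna13, of the G12/13 family, rose by 1.77 in Th2 cells, from 29.1 and 27.7 to 95.2 and 103.

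Of 17 genes for beta and gamma subunits, 10 were tested, and 8 rose in Th1 cells, 3 in Th2 cells and 8 in Th17 cells, while 0 fell in any subset, with medians of 0.825, 0.117 and 0.716, where those of all genes tested were -0.01, -0.11 and 0.08. The same number, 8, was higher in Th1 than in Th2 cells and in Th17 than in Th2 cells, beside 27.4% and 31.7% of all genes. With median scaling these counts were 8 and 4, and with quantile normalization 6 and 6. Falls against naive cells were not 0 in every fit: with quantile normalization 2 fell in Th2 and 2 in Th17 cells, and with the replicate block 1 fell in Th2 cells. Gnb5 rose most, by 4.38 in Th17 cells, from 0.739 and 0.798 to 32.9 and 39.2. Gng2 rose in all 3 subsets, by 2.62, 1.97 and 2.05 in Th1, Th2 and Th17.

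Arrestins and receptor kinases switch receptors off. Of 8 such genes 5 were tested, and 3 fell in each subset, Arrb2, Adrbk1 and Grk6, with medians of -0.436, -0.576 and -0.585. Grk6 fell by 0.97, 1.53 and 1.63 in Th1, Th2 and Th17 cells. Arrb1 went the other way and rose by 2.24, 2.71 and 2.48.

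Of 17 genes of the cAMP pathway 12 were tested, and 6 rose and 2 fell for Th1, 5 rose and 4 fell for Th2, and 7 rose and 2 fell for Th17, with medians of 0.371, 0.171 and 0.461. The adenylyl cyclases Adcy6 and Adcy7, which make cAMP, fell in all 3 subsets, Adcy7 from 84.6 and 94.1 in naive libraries to 22.0 to 35.5 in effector libraries. Adcy4 rose from at most 0.0550 to 1.02 to 2.11, and the phosphodiesterase Pde4a, which breaks cAMP down, rose by 1.62, 2.00 and 2.38. Of the 4 enzymes that make or clear the oxysterol ligands of Gpr183, Ch25h and Cyp7b1 were at or under 0.173 in every library and were not tested. Hsd3b7 rose in all 3 subsets by the values 0.42, 1.07 and 0.63, and Cyp27a1 was higher in Th1 cells, at 3.36 and 4.04 against at most 0.418 elsewhere. With quantile normalization 0 of these 2 rose and 1 fell in Th17 cells, so the Th17 rise of Hsd3b7 did not pass. In Th1 cells 1 of the 2 then rose, in place of 2. Over all the lists, 16 of the 39 genes tested differed between Th17 and Th2 cells, which is 41.0% beside 43.6% of all genes, and 22 did with the replicate block. Between Th1 and Th2 cells 25 differed, 64.1% beside 44.3% of all genes. Both counts were smaller in some fits with a library left out. The shares of all genes with the replicate block or with a library left out were not computed, so these changes have no background beside them.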

How the data were processed

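RNA from 8 libraries, 2 each of naive, Th1, Th2 and Th17 cells, was examined. The authors extracted RNA with TRIzol, aligned 50-base reads to mm10 with TopHat 1.3.2 and Bowtie 0.12.8, and deposited FPKM with its confidence interval for each gene, computed with Cufflinks 2.0.2. Tool versions are from the submitters' processing notes. The gene annotation was not given in the sources used here. The labels name a stranded kit and the methods an unstranded one, so genes that overlap on opposite strands may share reads. Read counts were not used here, and depth was estimated as the fragments implied by the confidence intervals, which cover counting error only.

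Libraries were grouped by their labels, and FPKM was summed per symbol. Members were symbols made of Gpr and digits, so 15 other symbols starting with Gpr were not members. Results of single genes withheld from the text are not reported here, while counts cover all members. Values were tested as log2(FPKM + 1), a pseudocount of 1, with limma 3.58.1 in R 4.3.3 (group means, mean-variance trend, two-sided, Benjamini-Hochberg over the 11198 genes whose mean FPKM reached 1). The tests that the methods name in general were not used, since limma fits all genes together. Tables and figures were made with Python 3.11.15, pandas 2.3.3, numpy 2.4.6 and matplotlib 3.10.9. The members, lists, motifs and classes were chosen with earlier results of these data known. Values in every library are given for class members with a difference of at least 1 in the comparisons that define the class and for those that rose in 1 subset and fell in another. The remaining listed genes are given by mean and SD or by range, and Gpr83 and the 8 genes under the test filter were added with values per library after these were seen. Of each list at most 4 genes with large differences are named. Adrbk1, Arrb2, Grk5, Ch25h, Cyp7b1 and Adcy7 were added after their values were seen.

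Replicate numbers come from the labels, which do not state what they share. Over genes, differences between libraries 1 and 2 correlated in all 6 pairs of groups, with Pearson's r from 0.138 to 0.294. The main fit held group means alone and did not use this pairing, so its p-values, counts and classes are unpaired. Pairing by number entered only in the alternative called the replicate block, whose values are printed where a call changed. Overlaps were read from GENCODE M21 (GRCm38) and promoters from RefSeq (GRCm38.p6).

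Alternatives were a pseudocount of 0.1, no filter on low values or one on both libraries of a group, median scaling and quantile normalization. Others were a fit of 2 groups alone, no mean-variance trend, the replicate block and the highest row per symbol in place of the sum. A difference of at least 1, other limits for listing and leaving out each library were also used.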

Additional observations from a re-analysis of the deposited data

Results flagged for a closer look

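These receptors differed between effector subsets in their change against naive cells, by a limma test of the difference itself, and the size given is the largest such difference of each receptor in log2(FPKM + 1). For Th1 minus Th2 cells these were 2.81 for Gpr55, 2.22 for Gpr141, 1.40 for Gpr18 and 0.91 for Gpr97. For Th17 minus Th2 cells they were 2.08 for Gpr65, 1.52 for Gpr183, 0.67 for Gpr171, 0.50 for Gpr160, 0.45 for Gpr137, -0.96 for Gpr174 and -1.25 for Gpr146. For Th1 minus Th17 cells they were -2.44 for Gpr125, -1.85 for Gpr83, -0.83 for Gpr180, -0.74 for Gpr162 and -0.50 for Gpr132. Each of the 16 passed an adjusted p of 0.05, and the naive mean cancels in it. Those of Gpr132, Gpr137, Gpr160, Gpr171 and Gpr174 did not pass in at least 1 fit with a library left out, and those of Gpr137, Gpr160 and Gpr171 passed neither with median scaling nor with quantile normalization.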

How the results depend on the processing

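Of 1080 differences of single receptors under alternatives with all libraries, 1020 kept their side of the threshold, 31 were lost, 26 gained and 3 reversed. With a library left out, 902 of 960 were kept, 49 lost, 9 gained and 0 reversed. A change of direction was counted as reversed only where the difference passed in the main or the alternative fit. Other changes of direction were counted as kept, as for Gpr108 in Th1 against naive cells, at -0.248 to 0.073 over the alternatives. These alternatives include the highest row per symbol, which left the differences unchanged, since 0 Gpr-numbered genes had more than 1 row. The 3 that reversed did so under quantile normalization, -0.53 for Gpr55 in Th2 cells, -0.55 for Gpr160 in Th17 cells and -0.033 for Gpr125 in Th1 cells, all against naive cells. The replicate block, which pairs libraries by number, lost 0 of the 74 calls among 120 differences and gained 11, so that 14 receptors rose in Th1 cells in place of 11, and it moved no count by more than 1.5 times. The cause of these changes was not tested.

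Other filters bring further low genes into the test. With no filter 12 receptors rose in Th2 cells, those that fell were 10 for Th1, 9 for Th2 and 9 for Th17, 10 were higher and 8 lower in Th1 than in Th2 cells, 4 were lower in Th17 than in Th2 cells, and the naive, Th2 and Th17 classes held 7, 3 and 8. With the filter on both libraries of a group, 10, 8 and 8 fell, 10 were higher in Th1 than in Th2 cells, and the same classes held 7, 1 and 7. The low receptors that this filter added had entered it through the group in which they were high. Their classes were thus partly set by the filter and are no support for the classes. Shares of all genes were not computed under either filter. With quantile normalization 8 fell in Th2 cells and 7 were higher in Th17 than in Th2 cells. In the fit of 2 groups alone, 3 were lower in Th1 than in Th2 cells. With a difference of at least 1 required, 6 rose and 2 fell in Th1, 1 fell in Th2 and 2 in Th17 cells, 2 were lower in Th1 than in Th2, 4 higher and 1 lower in Th17 than in Th2, and 3 lower in Th1 than in Th17 cells, and the naive, shared and Th17 classes held 0, 3 and 1. With a library left out, the naive class held 2 to 5, receptors lower in Th1 than in Th2 were 3 to 5, lower in Th17 than in Th2 1 to 2, and lower in Th1 than in Th17 5 to 8. Genes of the pathway lists that differed were then 14 to 25 between Th1 and Th2, 7 to 16 between Th17 and Th2, and 5 to 13 between Th1 and Th17, with 5 without Th1 replicate 1. The listed receptors were 32 at a limit of 0.5, 21 at a limit of 2 and 31 by the group mean. With 2 libraries a group, small changes could be missed, those of 1 on the log2 scale included, and receptors at low levels rest on few fragments.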

Other observations

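Among the genes under the limit for listing, 4 were picked after their values were seen, and none was tested with the filter in use. Gpr44, the receptor for prostaglandin D2 now named Ptgdr2, was at 0.274 and 0.363 in Th1 libraries, at most 0.0287 in Th2 libraries and at most 0.105 in the remaining ones. Gpr128, an adhesion receptor, was at 0.0786 and 0.0931 in Th2 libraries and listed at 0 in the other 6. Gpr45 was at 0.153 and 0.159 in Th17 libraries and at most 0.0374 elsewhere, and the adhesion receptor Gpr133 was at 0.387 and 0.558 in naive libraries and 0.111 to 0.219 in effector libraries. All of these levels rest on few fragments.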
